A study of Mus musculus with 6 samples.

Results

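The serine/threonine phosphatase genes other than those of protein phosphatase 2A (PP2A) were examined for acetylated lysine 27 of histone H3 (H3K27ac), the histone mark found at active promoters and enhancers, in mouse hematopoietic stem cells. They were taken by symbol from the RefSeq protein-coding genes: those starting Ppp1, Ppp3, Ppp4, Ppp5 or Ppp6 and those matching Ppm1 followed by a letter, with 1 gene left out by the rule. This gave 72 genes of the 21887 protein-coding genes on the main chromosomes, 22 of them catalytic and 50 regulatory. The rule uses symbols alone and no measured value, but it was set with earlier results of these data known.

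The mark was mapped by CUT&RUN, in which an antibody brings a nuclease to the mark and the released DNA is sequenced, in 3 libraries from wild-type mice and 3 libraries from mice lacking Ppp2ca, which encodes the alpha catalytic chain of PP2A. All libraries came from bone marrow cells labelled as primary hematopoietic stem cells. The sources used here give no strain, age, sex, deleted part of Ppp2ca or Cre driver. Each library was taken as 1 mouse, since the series text speaks of 3 mice per genotype while no label carries an animal number. If libraries shared an animal, the spread between them would be technical.

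Protein phosphatases remove phosphate from serine and threonine and so oppose the kinases. In the PPP family a small number of catalytic subunits pair with many regulatory subunits, which decide the substrate and the place of action. PP1 and calcineurin (Ppp3, activated by calcium and calmodulin) are separate branches, whereas PP4 and PP6 are the closest relatives of PP2A and share its regulatory partner alpha4 (gene Igbp1). The Ppm1 genes encode metal-dependent phosphatases of the PPM family, which mostly act as single chains. Calcineurin drives NFAT transcription factors in blood cells, and PP4, PP6, PP1 and Ppm1d (Wip1) act in the DNA damage response and mitosis.

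A gene was called marked in a library where a called peak came within 1000 bp of its first or last base, and a peak whose q-value, as the authors' caller gave it, was 0.05 or lower is called a strong peak. The lists differed in length between the genotypes: wild-type lists held 21917 to 29945 peaks and knockout lists 34016 to 50453. The genome background recovered from the peaks was 0.498 to 0.584 fragments per 200 bp for wild-type and 0.465 to 0.827 for knockout libraries, so the genotypes overlapped in it. Of 15 hematopoietic stem cell genes, the wild-type libraries marked 5, 5 and 6 and the knockout libraries 6, 4 and 4. Runx1, Tal1, Lyl1 and Etv6 were marked in all 6 libraries, while Cd34, Ly6a, Slamf1, Mecom, Hlf and Gata2 were among those marked in none. Kit was marked in 2 wild-type libraries and 1 knockout library, Meis1 and Fgd5 in 1 wild-type library each and Procr in 1 knockout library. Of the markers of other cells, myeloid genes were marked at 2 to 5 of 7 in wild-type and 3 to 5 of 7 in knockout libraries, erythroid genes at 2 to 3 of 5 and at 3 of 5, and megakaryocyte genes at 2 to 3 of 3 and at 2 of 3. B cell genes were marked at 0 to 1 of 4 and at 0 to 2 of 4, with Ms4a1 and Pax5 at 0 throughout, and T and NK cell genes at 1 of 6 and at 1 to 2 of 6, with Cd3d marked in all 6 libraries and Cd3e, Cd4, Cd8a and Ncr1 in none. Endothelial and stromal genes were marked at 1 of 5 in each wild-type and 2 of 5 in each knockout library, and genes of other organs at 0 to 1 of 4 and at 1 of 4. The part of other cells in the results was not tested.

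The following promoter sequences, the 250 bases before the RefSeq start of each gene, show the upstream DNA of the genes on which the results turn; the peaks mostly lay at or downstream of the start, and the bases covered in each stretch are given with the gene. Capitals mark CpG dinucleotides, and each sequence is written 5′ to 3′ on the gene's own strand (RefSeq, GRCm38.p6). The first 2 belong to the genes marked only in the knockout, Ppp4r2 (chr6:100833388-100833637, plus strand) and Ppp1r8 (chr4:132843170-132843419, minus strand), with 35 and 19 CpG.
Ppp4r2: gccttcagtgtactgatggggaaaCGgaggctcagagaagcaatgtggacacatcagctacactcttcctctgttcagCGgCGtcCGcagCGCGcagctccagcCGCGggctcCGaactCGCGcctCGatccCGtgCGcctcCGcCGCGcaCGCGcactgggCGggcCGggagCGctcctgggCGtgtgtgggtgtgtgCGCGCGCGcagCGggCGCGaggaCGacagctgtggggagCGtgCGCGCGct
Ppp1r8: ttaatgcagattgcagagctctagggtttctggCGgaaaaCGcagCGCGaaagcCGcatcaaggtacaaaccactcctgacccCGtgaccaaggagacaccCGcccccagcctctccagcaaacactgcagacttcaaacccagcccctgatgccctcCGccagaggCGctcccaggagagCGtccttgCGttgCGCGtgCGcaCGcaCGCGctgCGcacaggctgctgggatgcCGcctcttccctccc
The next 2 belong to the catalytic genes of PP4 and PP6, marked in all 6 libraries: Ppp4c (chr7:126792548-126792797, minus strand) and Ppp6c (chr2:39226350-39226599, minus strand), with 14 CpG each.
Ppp4c: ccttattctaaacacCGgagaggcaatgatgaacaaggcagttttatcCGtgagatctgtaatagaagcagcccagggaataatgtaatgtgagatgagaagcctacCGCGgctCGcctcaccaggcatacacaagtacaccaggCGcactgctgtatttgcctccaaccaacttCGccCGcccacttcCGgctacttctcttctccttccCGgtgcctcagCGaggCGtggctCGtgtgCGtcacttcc
Ppp6c: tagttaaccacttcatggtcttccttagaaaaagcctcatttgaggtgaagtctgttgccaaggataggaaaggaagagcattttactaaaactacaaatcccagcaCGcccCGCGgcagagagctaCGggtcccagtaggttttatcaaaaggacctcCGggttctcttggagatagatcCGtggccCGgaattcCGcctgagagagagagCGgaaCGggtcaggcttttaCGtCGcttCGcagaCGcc
All 6 genes shown were chosen after their values were seen. Of the last 2, Ppp1cc (chr5:122158025-122158274, plus strand) has 33 CpG and was covered here only in knockout libraries. Ppp1r3c (chr19:36736605-36736854, minus strand) has 20 CpG and no peak in any library.
Ppp1cc: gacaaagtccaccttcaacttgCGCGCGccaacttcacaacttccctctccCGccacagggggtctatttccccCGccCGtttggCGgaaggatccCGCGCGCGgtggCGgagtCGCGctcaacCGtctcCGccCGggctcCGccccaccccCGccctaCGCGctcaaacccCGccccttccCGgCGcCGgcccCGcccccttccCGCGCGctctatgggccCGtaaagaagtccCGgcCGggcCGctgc
Ppp1r3c: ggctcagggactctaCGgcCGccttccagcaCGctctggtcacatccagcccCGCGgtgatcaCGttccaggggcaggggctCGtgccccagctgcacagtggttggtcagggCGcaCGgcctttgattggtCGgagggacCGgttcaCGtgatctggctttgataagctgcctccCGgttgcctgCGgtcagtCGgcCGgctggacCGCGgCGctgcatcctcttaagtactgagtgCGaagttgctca

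The phosphatase genes were marked more often than protein-coding genes as a whole in every library, and more often in each knockout library than in each wild-type library. The wild-type libraries (replicates 1, 2 and 3, the order kept throughout) marked 31, 30 and 29 members and the knockout libraries 45, 40 and 42. The mean share of members was 41.7% ± 1.39 for wild-type libraries and 58.8% ± 3.50 for knockout libraries (SD, n = 3 each). The shares over all protein-coding genes were 27.5% ± 2.03 and 42.0% ± 2.36 (SD, n = 3 each). The ratio of knockout to wild type was 1.41 for the members and 1.53 for all genes, and this order turned with windows of 2000 bp (1.51 and 1.45) and at a q-value of 1e-05 (21.3 and 15.9). In bulk chromatin, more cells carrying the mark and more mark per cell cannot be told apart. When every list was cut to its best 21917 peaks, the shares were 40.3% and 49.5% for the members and 26.3% and 37.2% for all genes.

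Exclusive marking was rare. Only 2 members (2.78%), Ppp4r2 and Ppp1r8, were marked in every knockout library and by no wild-type one, against 4.10% of all genes. Without wild-type replicate 1, wild-type replicate 3 or knockout replicate 2 there were 4, 6 and 5 such members (5.56%, 8.33% and 6.94%), against 5.83%, 5.94% and 5.87% of all genes. No member was marked only in the wild type, against 0.00914% of all genes. Marked in all 6 libraries were 22 members (30.6%), against 17.0% of all genes, and 24 members (33.3%) were marked in none, against 49.3%. All 3 knockout libraries marked 38 members (52.8%, against 36.2% of all genes) and all 3 wild-type libraries marked 22 (30.6%, against 17.2%). The members' share marked throughout lay above that of all genes. Their knockout-only share rested on 2 genes and moved to either side of that of all genes with the setting. It was 8.33% without wild-type replicate 3 and 1.39% with lists of equal length, where all genes gave 5.94% and 2.91%. The widest gap was at a q-value of 1e-05, where 11 members (15.3%) were knockout-only, against 6.23% of all genes.

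**Figure D1:**
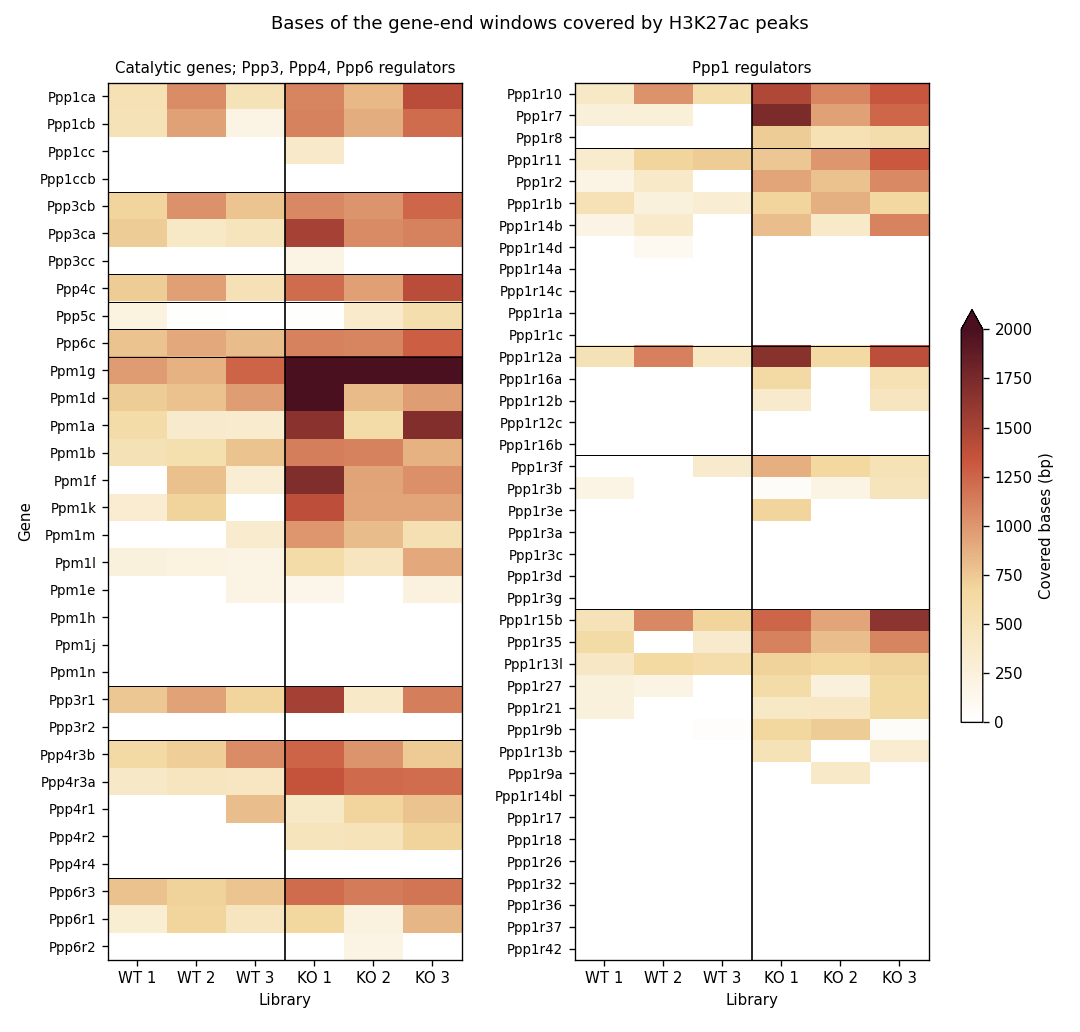
Bases of the gene-end windows covered by peaks (colour, bp, one colour from 2000 bp up) for the 72 genes (rows; left panel catalytic genes and Ppp3, Ppp4 and Ppp6 regulators, right panel Ppp1 regulators) in 3 wild-type (WT) and 3 knockout (KO) libraries (columns). Dark rows such as Ppm1g carry peaks in all 6 libraries, Ppp4r2 and Ppp1r8 are coloured only in the knockout, and 24 rows are blank.

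Catalytic genes carried the mark more often than regulatory genes in both genotypes. Their share differed between the genotypes by 12.1 percentage points, that of regulatory genes by 19.3 and that of all genes by 14.5. The ratios of knockout to wild type were 1.20, 1.59 and 1.53. Of the 22 catalytic genes 13, 14 and 14 were marked in the wild-type libraries and 18, 15 and 16 in the knockout, which is 62.1% ± 2.62 against 74.2% ± 6.94 (SD, n = 3 each). Of the 50 regulatory genes 18, 16 and 15 were marked in the wild-type libraries and 27, 25 and 26 in the knockout, which is 32.7% ± 3.06 against 52.0% ± 2.0 (SD, n = 3 each). In every library the catalytic share was the higher, by 29.5 ± 5.6 percentage points in the wild type and 22.2 ± 4.99 in the knockout (SD, n = 3 each), and these values overlapped between the genotypes. With lists of equal length the catalytic share was 60.6% in the wild type and 63.6% in the knockout, a difference within the spread of the libraries (SD 2.62 and 4.55), and the regulatory share was 31.3% and 43.3%. Both knockout-only members were regulatory genes and 11 members of each role were marked in all 6 libraries.

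The 2 roles also differ in kind, since 10 of the catalytic genes belong to the PPP family and 12 to Ppm1. Without the Ppm1 genes the catalytic share exceeded the regulatory one by 34.0 ± 4.0 points in the wild type and 24.7 ± 9.87 in the knockout (SD, n = 3 each). Genes of a family are not replicates, so no test was made over them.

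**Figure D2:**
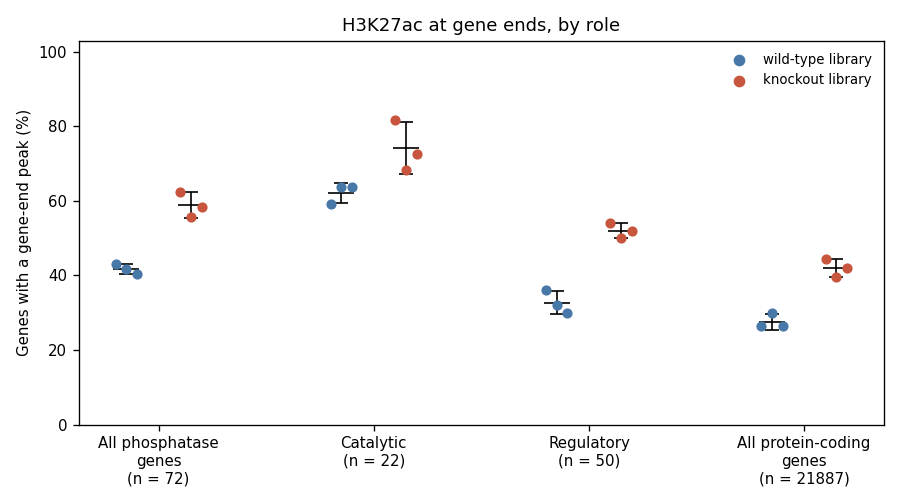
Share of genes with a gene-end peak (%) for all phosphatase genes, the catalytic and the regulatory ones, and all protein-coding genes; each point is a library and bars give the mean ± SD of 3. Catalytic genes lie between 59.1% and 63.6% in the wild type, above every regulatory value.

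Among the PP1 catalytic genes, Ppp1ca (alpha isoform; chromosome 19, 4192174 to 4195419) and Ppp1cb (beta isoform; chromosome 5, 32458848 to 32493713) were marked in all 6 libraries. Ppp1ca, whose window is shared with Rad9a and Tbc1d10c, had 529, 1052 and 500 covered bases in the wild type and 1089, 829 and 1403 in the knockout. Ppp1cb had 501, 953 and 203 covered bases against 1106, 887 and 1211. The genotypes overlapped at both genes (two-sided exact permutation p = 0.2 each). With 3 against 3 libraries this test cannot go below 0.1, so no single gene could be called at 0.05. Ppp1ca had a strong peak in 3 knockout and 0 wild-type libraries. Gene coordinates are those of GRCm38.p6.

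The gamma isoform gene Ppp1cc (chromosome 5, 122154967 to 122175273) had a gene-end peak in knockout replicate 1 alone, at its far end. The RefSeq promoter of Ppp1cc, however, lies 3308 bp inside the start given in the gene table, outside the window. Within 1000 bp of that promoter start, covered bases were 0, 295 and 43 in the wild type and 744, 708 and 1013 in the knockout. The printed 250 bases before the start were covered by 136, 184 and 250 bp in knockout replicates 1 to 3 and by 0 bp in each wild-type library. The best peaks there had folds of 3.54, 5.83 and 3.08 over the caller's local background in the knockout and 2.67 and 4.79 in wild-type replicates 2 and 3. Ppp1ccb, a further PP1 catalytic gene, was marked in no library.

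Of the calcineurin genes, Ppp3ca and Ppp3cb, which encode the alpha and beta catalytic chains, and Ppp3r1, which encodes the calcium-binding regulatory chain, were marked in all 6 libraries. At Ppp3ca covered bases were 728, 406 and 461 in the wild type and 1508, 1056 and 1103 in the knockout, every knockout value being the higher (532 ± 172 against 1222 ± 249, SD, n = 3 each; exact permutation p = 0.1). At Ppp3cb they were 681, 1027 and 771 against 1072, 1011 and 1242, with overlap (exact permutation p = 0.2). Ppp3cb was among the strongest members: its peak lay within the best 2.06% to 3.94% of each wild-type list and the best 1.96% to 2.98% of each knockout list.

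At Ppp3r1 covered bases were 750, 939 and 684 against 1520, 375 and 1118, so knockout replicate 2 lay below every wild-type library (exact permutation p = 0.6). Ppp3cc, the gamma chain, had a peak of 200 bp in knockout replicate 1 alone, and Ppp3r2, the second regulatory chain, had none. Ppp3ca, a long gene of 268014 bp, also held many peaks between its ends, with 4, 9 and 8 in the wild type and 17, 12 and 19 in the knockout. Of 11 calcineurin pathway genes outside the rule, 3, 4 and 3 were marked in the wild type and 6, 7 and 6 in the knockout. Nfatc3 and Calm3 were marked in all 6 libraries, Cabin1 (a calcineurin inhibitor) only in the knockout, and Nfatc1, Nfatc2, Nfatc4 and Rcan2 in none.

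The PP2A-like phosphatases carried the mark more completely than PP1. Of the 10 Ppp4 and Ppp6 genes 6, 6 and 7 were marked in the wild type and 8, 9 and 8 in the knockout (63.3% ± 5.77 against 83.3% ± 5.77, SD, n = 3 each). Of the 49 Ppp1 and Ppp3 genes 18, 16 and 14 were marked in the wild type and 27, 22 and 24 in the knockout (32.7% ± 4.08 against 49.7% ± 5.14). The Ppp4 and Ppp6 share was higher in every library, by 30.7 ± 9.53 points in the wild type and 33.7 ± 10.4 in the knockout (SD, n = 3 each). The difference was with PP1: against the 44 Ppp1 genes it was 33.8 ± 9.97 and 35.6 ± 9.97 points, whereas against the 5 Ppp3 genes it was 3.33 ± 5.77 and 16.7 ± 15.3 points, including 0 in 3 libraries. Of the 44 Ppp1 genes, 19 (43.2%) were marked in no library, among them most glycogen-targeting genes, against 49.3% of all genes. The mean Ppp1 share was 29.5% ± 4.55 in the wild type and 47.7% ± 4.55 in the knockout (SD, n = 3 each). All genes gave 27.5% and 42.0%. The other sets are small.

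**Figure D3:**
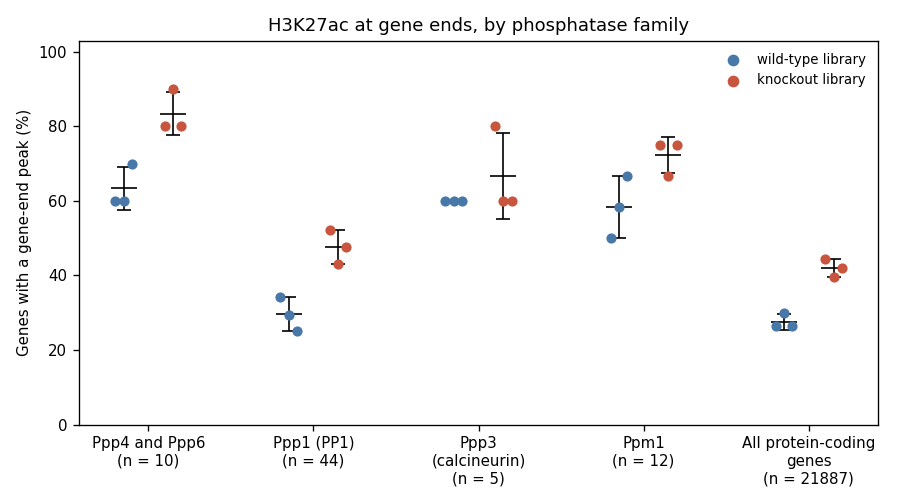
Share of genes with a gene-end peak (%) in each phosphatase family and in all protein-coding genes; each point is a library and bars give the mean ± SD of 3. Wild-type libraries lie at 60.0% to 70.0% for Ppp4 and Ppp6 genes and at 25.0% to 34.1% for Ppp1 genes, knockout libraries at 80.0% to 90.0% and 43.2% to 52.3%.

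Both catalytic genes of the PP2A-like pair were marked in all 6 libraries. At Ppp4c (chromosome 7, 126785866 to 126792557; window shared with Tbx6) covered bases were 731, 957 and 519 in the wild type and 1214, 958 and 1405 in the knockout. Each knockout value was the higher, knockout replicate 2 by 1 bp over wild-type replicate 2 (736 ± 219 against 1192 ± 224, SD, n = 3 each; exact permutation p = 0.1). Its summits stood 496 to 639 bp inside the gene from its start and rested on 11, 13 and 8 fragments in the wild type and 34, 20 and 36 in the knockout. The folds over the local background were 5.50, 5.26 and 4.09 against 6.03, 5.59 and 5.73.

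At Ppp6c (chromosome 2, 39194369 to 39226349) covered bases were 777, 913 and 808 against 1105, 1091 and 1284, again without overlap (833 ± 71.3 against 1160 ± 108, SD, n = 3 each; exact permutation p = 0.1). Strong peaks stood at Ppp6c in 3 knockout libraries and 1 wild-type library, and at Ppp4c in all 6. The 250 bases before the start of Ppp6c were covered by 0, 194 and 76 bp in the wild type and by 145, 250 and 250 bp in the knockout. Those of Ppp4c were covered by 0, 178 and 7 bp against 223, 220 and 250 bp. The genotypes overlapped in this stretch at Ppp6c, where wild-type replicate 2 exceeded knockout replicate 1, and did not at Ppp4c.

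The regulatory genes of PP4 were divided. Ppp4r3a and Ppp4r3b, which encode the alternative targeting subunits of the PP4 core complex, were marked in all 6 libraries. At Ppp4r3a (chromosome 12, 101039409 to 101083737) covered bases were 393, 449 and 434 in the wild type and 1345, 1224 and 1209 in the knockout. The spread within each genotype was small, at 425 ± 29.0 against 1259 ± 74.6 (SD, n = 3 each), a ratio of 2.96 (exact permutation p = 0.1). At Ppp4r3b (window shared with Cfap36) they were 638, 720 and 1050 against 1252, 1012 and 741, with overlap (exact permutation p = 0.4).

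Ppp4r2 (chromosome 6, 100833620 to 100869934), whose product joins Ppp4c to Ppp4r3a or Ppp4r3b in the core complex, was marked in the knockout alone. Covered bases were 0 in each wild-type library and 461, 481 and 688 in the knockout (543 ± 126, SD, n = 3). The exact permutation p = 0.1 is the value that any knockout-only gene gives. The best peaks had folds of 3.49, 3.50 and 4.26, summits of 8, 6 and 10 fragments and rank percentiles of 38.8, 52.2 and 31.6, so they stood in the middle of their lists. All 3 lay downstream of the start (summits at 456 to 685 bp), with only 66 bp of the printed upstream sequence covered, in knockout replicate 3. The peak was strong in 2 knockout libraries, and wild-type replicates 1 and 2 had peaks elsewhere in the gene. When at least 50% of a peak had to lie inside the window, or with windows of 500 or 2000 bp, Ppp4r2 was no longer knockout-only.

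Ppp4r1, which encodes a scaffold-like subunit, was marked in 3 knockout libraries and in wild-type replicate 3, with 0, 0 and 803 covered bases against 406, 686 and 781. Ppp4r4, a further PP4 subunit gene, was unmarked. Of the PP6 subunits with SAPS domains, Ppp6r3 (chromosome 19, 3454928 to 3576033) had 782, 701 and 770 covered bases against 1211, 1134 and 1169, without overlap (751 ± 43.7 against 1171 ± 38.6, SD, n = 3 each; exact permutation p = 0.1). At Ppp6r1 (window shared with Hspbp1 and Tmem86b) they were 319, 687 and 442 against 673, 231 and 841, with overlap. Ppp6r2 had a peak of 200 bp in knockout replicate 2 alone. Of 5 partners outside the rule, 1 was marked in each wild-type library and 4, 3 and 3 in the knockout: the alpha4 gene Igbp1 and the PP6 ankyrin subunit genes Ankrd28 and Ankrd52 each carried a peak in 3 knockout libraries and 1 wild-type library. For comparison, Ppp2ca itself was marked in all 6 libraries and Ppp2cb, the beta catalytic gene of PP2A, in 3 wild-type and 2 knockout libraries.

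**Figure D4:**
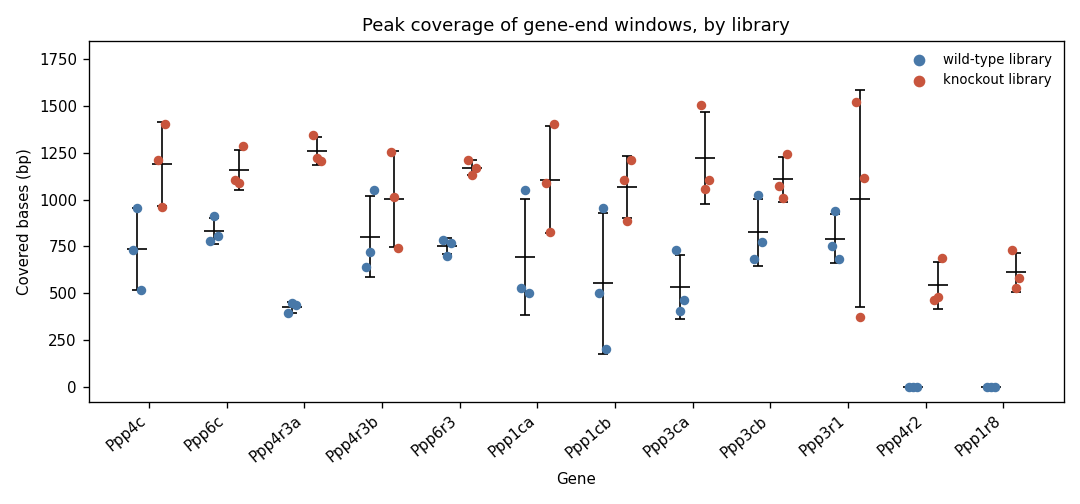
Bases of the gene-end windows covered by peaks (bp) at 12 phosphatase genes; each point is a library and bars give the mean ± SD of 3. At Ppp4c, Ppp6c, Ppp4r3a, Ppp6r3, Ppp3ca, Ppp4r2 and Ppp1r8 every knockout library lies above every wild-type library, and at the other 5 genes they overlap.

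Ppp5c, which encodes a phosphatase that binds the chaperone Hsp90, was weakly marked. Covered bases were 225, 17 and 0 in the wild type and 16, 365 and 570 in the knockout, with overlap (exact permutation p = 0.3). In wild-type replicate 2 and knockout replicate 1 the few bases lay at the far end of the gene, and no library listed the gene above the best 44.1% of its peaks.

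Of the 12 Ppm1 genes 6, 7 and 8 were marked in the wild type and 9, 8 and 9 in the knockout. Ppm1g, a mainly nuclear phosphatase linked to splicing, had the highest mean number of covered bases of all members in both genotypes: both its ends were covered in every library, with 969, 861 and 1251 covered bases against 3005, 2273 and 2571 (1027 ± 201 against 2616 ± 368, SD, n = 3 each; exact permutation p = 0.1). Its window is shared with Zfp513. Ppm1b, which dephosphorylates kinases of stress and inflammatory signalling, had 513, 562 and 776 against 1122, 1104 and 862, without overlap, and a strong peak in all 6 libraries. Its promoter at the gene-table start holds 7 CpG in 300 bp, the lowest number among members marked in all 6 libraries. Ppm1b has 3 RefSeq starts, and this number describes that promoter alone.

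Ppm1d, the p53-induced phosphatase Wip1 that ends DNA damage signalling, had 730, 786 and 967 covered bases against 2000, 813 and 966, so the genotypes overlapped (exact permutation p = 0.3). Ppm1a, a phosphatase of Smad proteins and stress kinases, had 608, 354 and 339 against 1662, 603 and 1702, with knockout replicate 2 just below wild-type replicate 1 (exact permutation p = 0.2). Its summits held 7, 8 and 6 fragments in the wild type and 25, 21 and 26 in the knockout, and the peak was strong in 3 knockout and 0 wild-type libraries.

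Ppm1l, Ppm1k, Ppm1f and Ppm1m were marked in every knockout library and to differing extents in the wild type. Ppm1l, of the endoplasmic reticulum, had 244, 220 and 200 covered bases against 615, 451 and 913. Ppm1k, the mitochondrial phosphatase of branched-chain amino acid breakdown, had 329, 690 and 0 against 1385, 928 and 928. Ppm1f, a phosphatase of calmodulin-dependent kinases, had 0, 796 and 298 against 1704, 932 and 1034, and Ppm1m had 0, 0 and 337 against 1007, 808 and 536. At these 4 genes all knockout values lay above all wild-type values (exact permutation p = 0.1 each). Ppm1e had a peak in 2 knockout libraries and 1 wild-type library, and Ppm1h, Ppm1j and Ppm1n had no gene-end peak.

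The unmarked state of Ppm1h depended on where its start was placed. Its RefSeq promoter start lies 1334 bp inside the start given in the gene table. Around that promoter start Ppm1h was knockout-only, with 200, 696 and 678 covered bases and folds of 2.36, 4.79 and 4.13, the peak of knockout replicate 1 resting on 4 fragments. With windows around every RefSeq promoter start, an alternative added after the data had been seen, 3 of the 59 members with a promoter were knockout-only (5.08%, against 4.38% of 17492 genes): Ppm1h, Ppp4r2 and Ppp1r8. In the same windows no member was wild-type-only (against 0.0114%), 17 (28.8%) were marked in all 6 libraries (against 18.7%), 22 (37.3%) in none (against 49.5%), and 24 (40.7%) had more covered bases in every knockout library (against 27.9%).

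**Figure D5:**
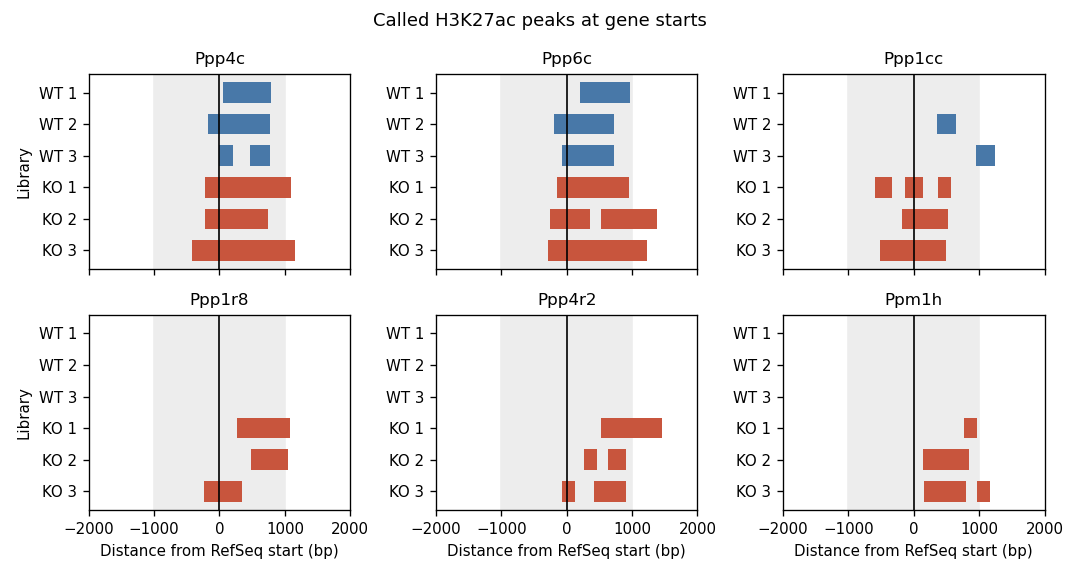
Called peaks (bars) in the 6 libraries within reach of the RefSeq start (vertical line) of 6 phosphatase genes, by distance from the start in bp, positive into the gene; the grey band is 1000 bp on either side. Ppp4c and Ppp6c carry peaks in all libraries, Ppp1r8, Ppp4r2 and Ppm1h in the knockout alone, and at Ppp1cc the wild-type peaks stand apart from the start.

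The regulators of PP1 form the largest set and were the least often marked. All 3 genes of its nuclear and mitotic partners, a small set, were marked in every knockout library, as were 36.2% of all genes. All 3 also had more covered bases in every knockout than in every wild-type library, as had 25.6% of all genes. Ppp1r10 (PNUTS, which places PP1 on chromatin; chromosome 17, 35916512 to 35932283; window shared with Mrps18b) was marked in all 6 libraries, with 400, 1023 and 564 covered bases against 1457, 1079 and 1328. Its summits held the most fragments of any member in every library, 17, 17 and 21 in the wild type and 48, 40 and 56 in the knockout. Ppp1r7 (SDS22, a partner in PP1 maturation and mitosis; window shared with Pask) had 269, 278 and 0 covered bases against 1731, 948 and 1239 (182 ± 158 against 1306 ± 396, SD, n = 3 each), a ratio of 7.16. Ppp1r7 had a strong peak in 3 knockout and 0 wild-type libraries.

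Ppp1r8 (NIPP1, which directs PP1 to splicing and chromatin proteins; chromosome 4, 132826924 to 132843169) was the other knockout-only member. Covered bases were 0 in each wild-type library and 728, 526 and 582 in the knockout (612 ± 104, SD, n = 3). The exact permutation p = 0.1 follows from the knockout-only call itself and adds nothing to it. The best peaks had folds of 5.28, 3.24 and 3.72 and rested on 14, 6 and 10 fragments. Those of knockout replicates 2 and 3 did not overlap each other, with summits at 536 and -36 bp from the start, and the peak was strong in 2 knockout libraries. The printed upstream sequence was covered by 230 bp in knockout replicate 3 and by 0 bp in every other library. Wild-type replicate 2 had a peak elsewhere in the gene. Cutting all lists to equal length left Ppp4r2 and not Ppp1r8 as knockout-only.

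Of the 9 genes of PP1 inhibitor proteins, 4, 5 and 2 were marked in the wild type and 4 in each knockout library. Ppp1r11 (window shared with Rnf39) had 339, 685 and 734 covered bases against 753, 1001 and 1313. Ppp1r1b (DARPP-32, known from dopamine signalling in the brain) had 520, 236 and 299 against 680, 873 and 658, but the peaks lay at the end shared with Stard3. Both were marked in all 6 libraries without overlap of the genotypes. Ppp1r2 had 200, 390 and 0 against 925, 788 and 1064, and Ppp1r14b (window shared with Fkbp2, LOC114841036 and Plcb3) had 200, 364 and 0 against 799, 380 and 1097. Ppp1r14d was marked in wild-type replicate 2 alone, and Ppp1r1a, Ppp1r1c, Ppp1r14a and Ppp1r14c had no peak.

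The myosin phosphatase family was led by Ppp1r12a (MYPT1, the targeting subunit of myosin phosphatase), marked in all 6 libraries with 508, 1113 and 415 covered bases against 1670, 645 and 1397, with overlap (exact permutation p = 0.2). Ppp1r12b and Ppp1r16a were marked in knockout replicates 1 and 3 alone, and Ppp1r16b and Ppp1r12c in no library. Ppp1r12c, however, has its RefSeq promoter 2083 bp from the gene-table start, and around it the gene was marked in all 6 libraries, with 634, 641 and 395 covered bases against 1120, 451 and 1498.

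The glycogen-targeting genes, which bring PP1 to glycogen in muscle and liver, were the least marked, at 1, 0 and 1 of 7 in the wild type and 3, 2 and 2 in the knockout. Ppp1r3a, Ppp1r3c, Ppp1r3d and Ppp1r3g had no gene-end peak, although the 300 bases around the start of Ppp1r3c hold 26 CpG, above the median of 23 over the member promoters. Ppp1r3f was marked in 3 knockout libraries and wild-type replicate 3 (0, 0 and 353 against 876, 667 and 502 covered bases), Ppp1r3b in 3 knockout libraries and wild-type replicate 1, and Ppp1r3e in knockout replicate 1 alone.

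Of the 16 other PP1 regulators 5, 3 and 4 were marked in the wild type and 7 in each knockout library. Ppp1r15b (CReP, which directs PP1 to the translation factor eIF2alpha) was marked in all 6, with 493, 1075 and 687 covered bases against 1244, 927 and 1641, with overlap. Ppp1r13l (iASPP, an inhibitor of p53) had 409, 654 and 594 against 698, 667 and 697. These peaks lay at the gene-table start shared with Cd3eap, and around its own RefSeq promoter start, 1492 bp away, Ppp1r13l was marked in wild-type replicate 3 alone. Ppp1r27 was likewise marked only at its far end, next to Mcrip1. Ppp1r37 was unmarked at its gene-table ends and, around its RefSeq promoter start 2306 bp away, marked in 3 knockout and 2 wild-type libraries.

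The other members of this set had values in fewer libraries. Ppp1r9b (spinophilin, an actin-binding partner) had 0, 0 and 26 covered bases against 678, 728 and 45. Ppp1r35 and Ppp1r21 were marked in 3 knockout libraries each, with 2 and 1 wild-type libraries. Ppp1r13b was marked in 2 knockout libraries and Ppp1r9a in 1. Ppp1r14bl, Ppp1r17, Ppp1r18, Ppp1r26, Ppp1r32, Ppp1r36 and Ppp1r42 had no gene-end peak. Of 10 PP1 partners outside the rule, 6, 5 and 6 were marked in the wild type and 7, 7 and 8 in the knockout. Phactr4, Cdca2, Knl1, Wbp11 and Shoc2 were marked in all 6 libraries and Rif1, which brings PP1 to replication origins, only in the knockout.

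Across all members, the windows of 25 (34.7%) held more covered bases in every knockout than in every wild-type library, against 25.6% of all genes, and none held fewer, against 0.0183%. Among the 22 members marked in all 6 libraries the median ratio of covered bases was 1.68 (range 1.21 to 3.05), against 1.90 over the 3713 such genes. It was 1.67 for the 11 catalytic and 1.69 for the 11 regulatory genes. Of these 22 members 12 (54.5%) had no overlap between the genotypes, against 66.5% of the 3713 genes. Peaks covered more bases at these members in the knockout, by a median ratio below that of all genes marked throughout.

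The number of fragments under the summits differed more than the fold did. At the 22 members marked throughout, the median summit held 9, 9.5 and 8 fragments in the wild type and 26, 18.5 and 28.5 in the knockout, while the median fold over the local background was 3.98, 4.57 and 3.97 against 5.22, 5.29 and 5.38. Knockout replicate 2 had the lowest genome background of all libraries (0.465 fragments per 200 bp) and the lowest median of the knockout libraries, 18.5 fragments. The part of depth in these values was not tested. Strong peaks marked 19.0% ± 5.26 of the members in the wild type and 49.1% ± 5.26 in the knockout (SD, n = 3 each), against 10.7% and 36.5% of all genes. By strong peaks alone 8 members (11.1%, against 12.4% of all genes) were knockout-only: Ppm1a, Ppp1ca, Ppp1r2, Ppp1r27, Ppp1r3f, Ppp1r7, Ppp3r1 and Ppp6r1. Neither Ppp4r2 nor Ppp1r8 was among them.

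Other counts by strong peaks followed the same order. Strong peaks stood at 7 members (9.72%) in all 6 libraries, against 4.37% of all genes, and at the same number in all 3 wild-type libraries, against 4.40%. In all 3 knockout libraries they stood at 30 members (41.7%, against 29.4%). The 7 were Ppm1b, Ppm1g, Ppp1r10, Ppp3cb, Ppp4c, Ppp4r3a and Ppp4r3b, so 3 of them were PP4 genes. No library had a strong peak at 31 members (43.1%), against 57.2% of all genes. More bases under strong peaks in every knockout library were found at 26 members (36.1%, against 25.1%) and fewer at none (against 0.00457%).

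Where members were marked at a gene end, the peak was mostly at the start end. Of the marked members with a known strand, 92% to 100% per wild-type library and 90.9% to 94.1% per knockout library had a peak at the start end, against 92.5% to 95.3% over all genes. Among the 59 members with a RefSeq promoter of 300 bases, the median number of CpG was 29 in the 17 marked in all 6 libraries, 23 in the 21 marked in 1 to 5, and 12 in the 21 marked in none. Over all genes with a promoter the medians were 22, 19 and 5. These classes rest on the gene-table ends, so Ppp1r12c, Ppp1r37 and Ppm1h count as unmarked although peaks stood near their promoter starts, and Ppp1r13l counts as marked throughout. Classed by peaks within 1000 bp of the promoter's own start, which was added after seeing the data, the medians were 30.0, 23.5 and 10.5 CpG in 17, 20 and 22 member promoters. The members unmarked by either classing include CpG-rich promoters, with up to 48 CpG at Ppp1r26 and 45 at Ppp1r3d.

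Short motifs were searched on both strands of the same promoters. The GC box GGGCGG was present in 67.8% of the member promoters and 46.3% of all promoters. It was present in 14 of the 17 promoters of members marked throughout and in 10 of the 21 unmarked ones (82.4% and 47.6%), against 64.9% and 30.1% in the same classes of all genes. Classed by the promoter's own start, it was present in 14 of 17 and 10 of 22. The ETS motif CCGGAAGT was present in 5.08% of member and 5.28% of all promoters, including Ppp4c, and the CRE motif TGACGTCA in 5.08% and 2.33%. The NRF1 motif was present in 3.39% and 1.33%, the CCAAT box in 28.8% and 39.2%, the E-box CACGTG in 3.39% and 7.91%, and the TATA box TATAAA in 13.6% and 13.3%. A GC box and a CRE, ETS or NRF1 motif can share a promoter, and each match describes letters in these 300 bases alone.

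Between the gene ends the members held 60, 71 and 39 further peaks in the wild-type libraries and 133, 105 and 102 in the knockout libraries. They occurred in 47.2%, 41.7% and 29.2% of the members per wild-type library (all genes 22.6%, 28.1% and 22.3%) and in 50%, 48.6% and 47.2% per knockout library (all genes 37.0%, 28.4% and 28.0%). Over all genes the inner peaks numbered 9547, 13011 and 9449 against 24967, 16257 and 16958. Gene length was not matched between the members and all genes. The long genes Ppp3ca and Ppm1h held 17 inner peaks each of the 133 in knockout replicate 1. Of the 24 members without a gene-end peak, 10 (41.7%) had such an inner peak in at least 1 library, against 33.4% of the 10800 unmarked genes. Ppm1h led with 4, 5 and 1 in the wild type and 17, 12 and 10 in the knockout. It spans 268368 bp, against a median of 13379 bp over the 24. Its knockout inner peaks include those around its RefSeq promoter start. Of 10 other PPP and PPM phosphatase genes outside the rule, 2, 4 and 5 were marked in the wild type and 6, 5 and 7 in the knockout: Ilkap and Tab1 in all 6 libraries, Pdp1 only in the knockout, and Ppef1, Ppef2 and Pp2d1 in none.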

How the data were processed

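H3K27ac CUT&RUN peak lists of 6 libraries, 3 wild type and 3 Ppp2ca-deficient, were used. The tools were Trimmomatic and BWA for reads, MACS2 for peaks, and HOMER, ChIPseeker and deepTools, on GRCm38/mm10, per the submitters' processing notes. The sources used here give no versions, parameters or control library. The authors deposited 1 narrowPeak list per library, each peak with a score, a fold (a ratio to the caller's local background) and −log10 p-value and −log10 q-value. The lowest deposited −log10 p-value was 2.005 to 2.006, and the deposited score was not used. The authors' folds and q-values vary with sequencing depth and served for description, ranking and filtering; values of both genotypes set side by side carry that dependence and were not tested.

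Here a gene was marked where a peak overlapped by at least 1 bp the 1000 bp on either side of either end in the RefSeq table (GRCm38.p6, 21887 protein-coding genes). Covered bases are window bases under peaks. Whole fragment numbers at summits were solved from fold and p-value, at a tolerance of 0.002 in −log10 p. Strand, starts and promoters came from the RefSeq promoter table, in which 59 of the 72 members matched by gene ID. Covered bases of single genes were tested by exact permutation (two-sided, 20 assignments). Depth limits single values, since typical wild-type peaks rest on few fragments. The overlap code behind the calls was checked on simulated lists with planted peaks, which does not measure how reliable the calls are.

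The members and lists were chosen with earlier results of these data known. Named were all catalytic genes, the Ppp3, Ppp4 and Ppp6 regulators, and of the Ppp1 regulators the exclusive members, the 6 best ranked of those marked in all 6 libraries, and unmarked ones by subgroup; further genes were named after their values were seen. Alternatives were q-values of at most 0.05 and 1e-05, lists of equal length, other overlaps and windows, starts alone, unshared windows, a replicate block, and each library left out in turn. Python 3.11.15, numpy 2.4.6, pandas 2.3.3, scipy 1.17.1 and matplotlib 3.10.9 were used.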

Additional observations from a re-analysis of the deposited data

How the results depend on the processing

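Under every alternative the knockout libraries marked more members than the wild-type libraries, and no member was wild-type-only. The difference in members marked per library, 12.3 as reported, was 21.7 with q-values of at most 0.05, 20.3 at 1e-05, 6.67 with lists of equal length, 16 with windows of 2000 bp, 8 of the 59 members with a start at starts alone, 8.67 of the 45 members with unshared windows, and 9.67 around RefSeq promoter starts (chosen after seeing the data); it was 11.0 to 13.5 without a library. Knockout-only members, 2 as reported, numbered 8 (11.1%, against 12.4% of all genes) and 11 (15.3%, against 6.23%) at the q-values. There was 1 (1.39%) with lists of equal length, against 2.91%, and 1 (1.39%) with at least 50% of the peak inside the window, against 3.90%. Windows of 2000 bp gave 4 (5.56%, against 4.05%). Without a library there were 2 to 6 (2.78% to 8.33%, against 4.73% to 7.14%): 4 without wild-type replicate 1, 6 without wild-type replicate 3 and 5 without knockout replicate 2. Members marked in all libraries, 22 as reported, numbered 7 (9.72%, against 4.37% of all genes) and 0 (against 0.279%) at the q-values. They numbered 13 of 45 with unshared windows (28.9%, against 10.9%) and 22 to 28 without a library (30.6% to 38.9%, against 17.0% to 20.2%). Those with more covered bases in every knockout library, 25 as reported, numbered 13 at a q-value of 1e-05 (18.1%, against 7.58% of all genes). They numbered 15 of 45 with unshared windows (33.3%, against 18.1%) and 25 to 35 without a library (34.7% to 48.6%, against 27.4% to 33.9%).

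The catalytic minus regulatory share in the wild type, 29.5 points as reported, was 14.1 and 0.182 at the q-values, with 1 marked member per wild-type library at the stricter. In the knockout, 22.2 as reported, it was 15.9 with windows of 2000 bp and 30.8 around RefSeq promoter starts. Without a library these were 27.4 to 32.6 and 19.5 to 24.3. The Ppp4 and Ppp6 minus Ppp1 and Ppp3 share in the wild type, 30.7 as reported, was 2.65 at a q-value of 1e-05; without a library it was 25.3 to 34.4, and 28.0 to 38.1 in the knockout. The labels number the replicates alike. Deviations of same-numbered libraries from their group means had correlations of -0.0167, -0.0658 and -0.0241 across genes. Those of differently numbered libraries were -0.0357 to 0.0570. No pairing was seen, but with few fragments under typical wild-type peaks these values cannot decide whether libraries were paired. With a replicate block, pairing libraries of the same number, 26 members had more covered bases in the knockout in all 3 pairs (30.0% of all genes had), and the difference in members marked stayed at 12.3. The cause of these changes was not tested, except that fewer members entered with starts alone and unshared windows. Depth is known only from the peaks.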
